A study of Sus scrofa with 6 samples.

Results

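Neurons are not made by somites, but the neural tube and the dorsal root ganglia lie directly beside them, and cells with open neuron genes were looked for in single-cell chromatin accessibility libraries of pig somites and myotomes. The cells were chosen by their own marker counts: a barcode (the sequence that marks the DNA of a droplet, taken here as a cell) was gated when it had 2000 to 30000 counts of transposase cut sites in peaks, a count in at least 4 marker windows, and a summed marker count of at least 3 times the mean marker share of the 6 libraries. A window is a gene body plus 2 kb upstream on Sscrofa11.1. The markers were ELAVL3, ELAVL4, STMN2, TUBB3, NEUROD1, NHLH1, INSM1, ISL1, POU4F1, SLC12A5 and NEFM, of which TUBB3 was not analysed here, so that 10 of 11 windows were used. The rule chose 1093 of the 58809 barcodes within the count limits (1.86%) out of 64439 deposited barcodes.

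The 6 libraries came from somites at embryonic day 18 (E18) and day 21 (E21) and at embryonic day 28 (E28) from myotomes, from which skeletal muscle forms. Each stage had 1 library of purebred Tibetan pigs (ZZ) and 1 of Duroc × Tibetan pigs (DZ), and each library pooled 5 embryos of the same sow. No stage and breed had a replicate, and at E28 stage and tissue cannot be told apart. Where 6 values follow each other they run from E18 to E28 with ZZ before DZ at each stage. The tests below compared gated with other barcodes, and in 1 case with progenitor-gated barcodes, inside each library, and used the 6 libraries as replicates.

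Neurogenesis runs through a known sequence. Progenitors of the neural tube and crest switch on proneural basic helix-loop-helix factors such as NEUROG1 and NEUROG2, which recognise short DNA motifs called E-boxes, and these activate NEUROD1, NHLH1 and INSM1 while the cell leaves the cell cycle. RNA-binding proteins of the ELAV family, stathmins such as STMN2 and neurofilaments such as NEFM mark the neuron that results. ISL1 is used by motor and sensory neurons, POU4F1 by sensory neurons and some spinal interneurons, and SLC12A5 is the chloride exporter of neurons.

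The sequences that the results turn on come from promoters and other regions that were more open in gated barcodes. The 3 promoters shown belong to a proneural factor (NEUROG2), a neuronal stathmin (STMN4) and a neuronal RNA-binding protein (CELF3). They span the 250 bases before the RefSeq start on Sscrofa11.1, at chr8:110200431-110200680 (plus strand), chr14:11007758-11008007 (minus strand) and chr4:97513313-97513562 (plus strand). Capitals mark an E-box on either strand, which is CAGATG, or else CATATG, or else CAGCTG. The STMN4 promoter holds the first once (as its reverse complement), the CELF3 promoter holds the last once, and the NEUROG2 promoter holds none of them.
NEUROG2 promoter: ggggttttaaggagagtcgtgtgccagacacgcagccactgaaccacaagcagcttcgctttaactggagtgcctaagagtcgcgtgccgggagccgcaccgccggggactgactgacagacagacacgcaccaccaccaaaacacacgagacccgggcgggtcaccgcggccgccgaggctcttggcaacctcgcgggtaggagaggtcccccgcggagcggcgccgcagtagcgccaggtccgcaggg
STMN4 promoter: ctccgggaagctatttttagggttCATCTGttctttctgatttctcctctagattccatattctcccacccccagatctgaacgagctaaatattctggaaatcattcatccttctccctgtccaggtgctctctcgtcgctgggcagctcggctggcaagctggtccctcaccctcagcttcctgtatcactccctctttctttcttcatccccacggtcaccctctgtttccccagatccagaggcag
CELF3 promoter: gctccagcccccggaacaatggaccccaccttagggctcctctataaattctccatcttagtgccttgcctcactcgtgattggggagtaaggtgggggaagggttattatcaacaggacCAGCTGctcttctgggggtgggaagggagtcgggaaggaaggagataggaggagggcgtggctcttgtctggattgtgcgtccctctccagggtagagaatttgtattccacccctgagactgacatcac

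The 4 regions shown are among the 8 with the largest rise that met the naming rule, and each is given by the central 200 bases of the stretch covered by peaks of all 6 libraries, on the plus strand of Sscrofa11.1. They lie at chr1:163358105-163358304 in an intron (nearest start IGDCC3), chr15:110468142-110468341 between genes (nearest start KLF7), chr5:14124772-14124971 in an intron (nearest start NUAK1) and chr7:47624132-47624331 between genes (nearest start CRABP1).
IGDCC3 region: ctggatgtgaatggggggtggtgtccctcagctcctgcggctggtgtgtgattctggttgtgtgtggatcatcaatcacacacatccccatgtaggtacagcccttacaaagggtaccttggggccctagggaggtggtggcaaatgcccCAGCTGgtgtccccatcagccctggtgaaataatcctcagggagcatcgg
KLF7 region: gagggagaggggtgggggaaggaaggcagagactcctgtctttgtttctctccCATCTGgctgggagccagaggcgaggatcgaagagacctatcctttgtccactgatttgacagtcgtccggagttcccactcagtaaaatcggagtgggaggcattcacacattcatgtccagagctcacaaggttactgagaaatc
NUAK1 region: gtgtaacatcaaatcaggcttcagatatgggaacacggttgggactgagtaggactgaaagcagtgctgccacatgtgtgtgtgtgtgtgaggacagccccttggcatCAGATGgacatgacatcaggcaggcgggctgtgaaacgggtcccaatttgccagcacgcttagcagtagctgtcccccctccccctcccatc
CRABP1 region: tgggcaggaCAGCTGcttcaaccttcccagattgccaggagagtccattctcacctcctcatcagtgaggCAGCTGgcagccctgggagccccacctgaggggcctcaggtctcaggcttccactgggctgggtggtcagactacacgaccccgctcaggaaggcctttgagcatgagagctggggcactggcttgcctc

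Gated barcodes were found in every library, and their share was highest in E21 ZZ. They numbered 245 of 11243 in E18 ZZ (2.18%, exact 95% interval 1.92% to 2.47%) and 171 of 10073 in E18 DZ (1.70%, 1.45% to 1.97%). At E21 they numbered 443 of 9286 in ZZ (4.77%, 4.35% to 5.22%) and 171 of 9347 in DZ (1.83%, 1.57% to 2.12%). At E28 only 24 of 9410 were gated in ZZ (0.255%, 0.163% to 0.379%) and 39 of 9450 in DZ (0.413%, 0.294% to 0.564%). The intervals are Clopper-Pearson intervals and cover counting error only, and with 1 library per stage and breed no difference in share was tested.

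The low share at E28 went with less marker sequence inside called peaks. Peaks were called separately in each library, and they covered 59477 to 73100 bp of the marker windows at E18 and E21 but 34833 and 37328 bp at E28. When each library was set against its own mean share of marker counts, the share of gated barcodes was 1.03% in E18 ZZ and 0.903% in E18 DZ. It was 2.26% and 1.89% in the E21 libraries. It was 0.861% in E28 ZZ and 1.21% in E28 DZ, the latter above both E18 libraries. The order of E18 and E28 therefore depends on the threshold, whereas E21 ZZ was highest under both.

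**Figure D1:**
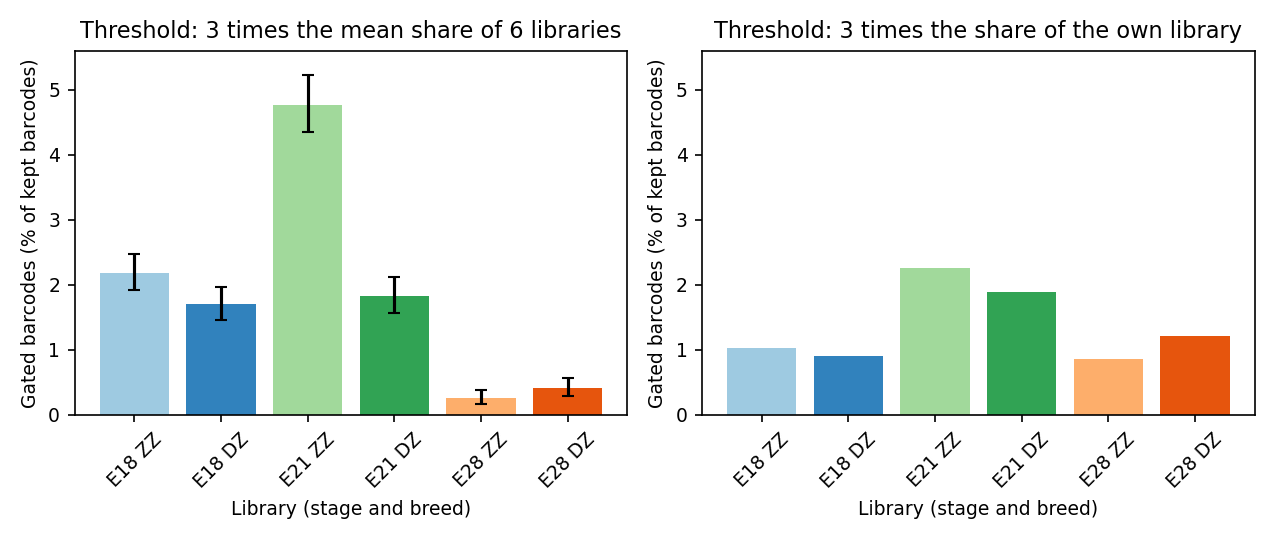
Share of kept barcodes (y axis, percent) that were gated in each library (x axis), with the threshold at 3 times the mean share of the 6 libraries (left, bars with exact 95% binomial intervals) or of the own library (right, no intervals). E28 stands at 0.255% and 0.413% on the left and at 0.861% and 1.21% on the right.

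The values that chose the barcodes are given as a description. Of the gated barcodes, 512 had a count in 4 windows, 319 in 5, 149 in 6, 78 in 7, 30 in 8, 4 in 9 and 1 in 10, and 599 further barcodes passed the share threshold with 3 windows. The median gated barcode had 3.69 times the mean share and the highest 12.4 times, and the barcodes nearest the threshold lay at 3.0 times inside and 2.997 times outside. Gated barcodes were not deeper than others at E18 and E21 ZZ, with medians of 9719, 10490 and 9730 counts against 10954, 11488.5 and 10538. Their medians exceeded the others slightly in E21 DZ (9916 against 9688.5), E28 ZZ (8558.5 against 8083) and E28 DZ (10018 against 8779). The libraries shared 113 to 157 kept barcode sequences per pair, and 1 gated sequence was gated in more than 1 library.

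All 10 marker windows were higher in gated barcodes of all 6 libraries, which the rule fixes. Levels are given as CPM, the counts in the window scaled to a common total of counts in peaks of the same barcodes. ELAVL4 stood at 251, 262, 196, 217, 132 and 138 CPM in gated barcodes of the 6 libraries, against 85.6, 86.1, 69.7, 64.6, 26.9 and 23.1 in the others. NHLH1 stood at 122, 139, 159, 199, 117 and 217 CPM in the same order. STMN2 was lower in both E18 libraries and E28 ZZ (51.3, 74.4 and 63.4 CPM) than in E21 ZZ, E21 DZ and E28 DZ (121, 158 and 138). POU4F1 stood at 52.9, 66.0, 133.9, 70.7, 117 and 173 CPM, highest in E28 DZ. SLC12A5 stood at 210, 204, 142, 140, 224 and 95.7 CPM. Over all libraries together the ELAVL4 window had a count in 70.5% of gated barcodes and the NEFM window in 33.1%, though their places among the markers differed between libraries. In other barcodes the ELAVL4 window had a count in 11.13% to 39.7% and the NEFM window in 8.79% to 14.3%.

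**Figure D2:**
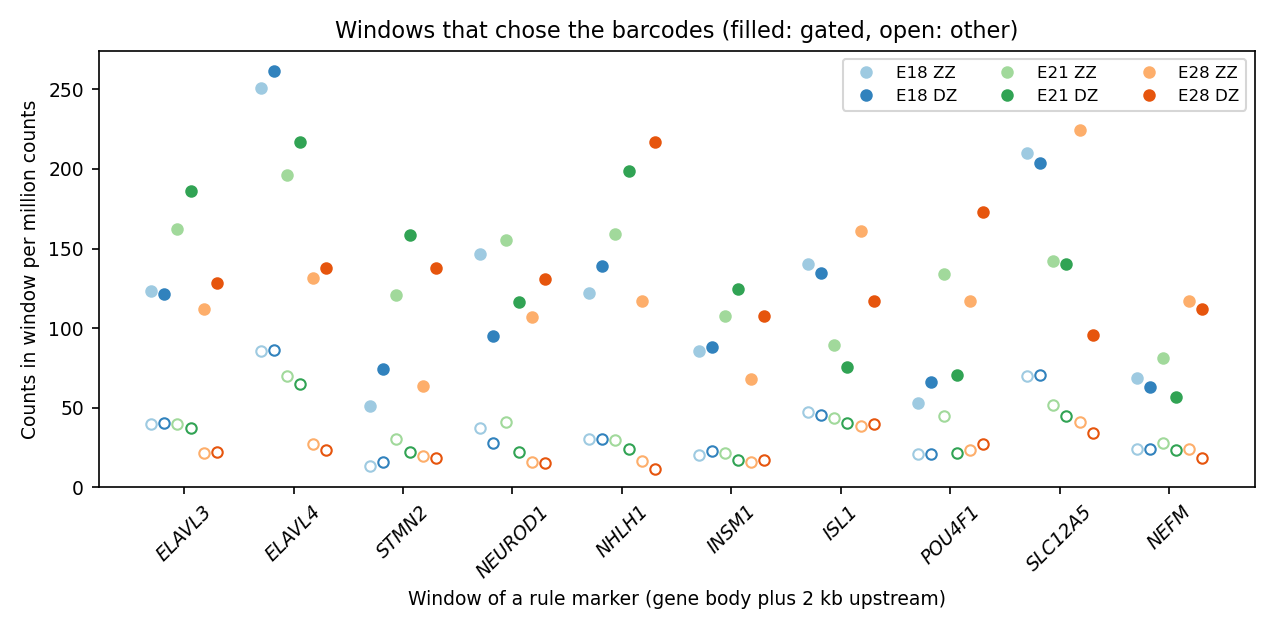
CPM (y axis) in the windows of the 10 markers (x axis) in gated (filled) and other barcodes (open) of the 6 libraries (colours). The gap between filled and open points is fixed by the rule, and the spread of the filled points shows which marker contributed in which library, such as POU4F1 from 52.9 CPM in E18 ZZ to 173 CPM in E28 DZ.

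The label was checked on marker windows that did not take part in the choice. For this, barcodes were chosen anew by a looser rule, so these sets are not the gated barcodes. Barcodes were chosen with ELAVL3, STMN2, NEUROD1, INSM1, POU4F1 and NEFM (at least 2 windows and 3 times the share, 3347 barcodes), and the remaining markers were measured. This choice held 266 barcodes in E28 ZZ and 275 in E28 DZ, against 24 and 39 gated. NHLH1, a neuronal basic helix-loop-helix factor, was then 2.01-fold higher than in other barcodes (log2 fold change 1.01 ± 0.16 SE, edgeR quasi-likelihood adjusted p = 0.00346) and higher in 6 of 6 libraries, by 1.24- to 3.35-fold. ELAVL4 and SLC12A5 rose by smaller factors of 1.22 and 1.196 (adjusted p = 0.0241 and 0.0462), and the change in ISL1 was 1.07-fold with an adjusted p of 0.472. In this fit 3.67% of all windows were called higher. In the swapped choice (2946 barcodes, 1.02% of windows called higher) STMN2 rose 1.61-fold (adjusted p = 0.00806) and NEUROD1 1.48-fold (adjusted p = 0.0175). INSM1 was 1.496-fold higher with an adjusted p of 0.0505, and ELAVL3, POU4F1 and NEFM were at 1.27-, 1.19- and 1.07-fold with adjusted p of 0.144, 0.265 and 0.734.

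The held-out rise was uneven across libraries. NHLH1 was 2.45- and 3.35-fold higher in E21 ZZ and E21 DZ and 3.04-fold in E28 DZ, but 1.27-, 1.38- and 1.24-fold in E18 ZZ, E18 DZ and E28 ZZ. STMN2 was likewise highest in these libraries, with 1.82- and 2.24-fold at E21, 1.72-fold in E28 DZ and 1.16- to 1.38-fold in the other libraries. ELAVL4 and ELAVL3 were higher in only 5 of 6 libraries, and ISL1, POU4F1 and NEFM in 4. In E28 ZZ the ratios of ELAVL4, ELAVL3 and NEFM were 0.84, 0.68 and 0.85. On leaving out a library the NHLH1 call held in every fit (largest adjusted p = 0.0326). STMN2 and NEUROD1 lost it without E21 ZZ (adjusted p = 0.168 and 0.271) and without E21 DZ. ELAVL4 and SLC12A5 lost it without E21 ZZ, E21 DZ or E28 DZ, and INSM1 passed without E18 ZZ or E18 DZ. Over all windows, the number called higher in the first choice fell from 867 to 139 without E21 ZZ and 392 without E21 DZ. In the swapped choice it fell from 241 to 5 and 10.

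Gated barcodes also lay near each other in chromatin that the rule did not use. Each library was embedded by latent semantic indexing of its peaks, leaving out 100 kb around every marker, and the share of gated barcodes among the 20 nearest neighbours was compared. It was 16.5% for gated and 4.42% for other barcodes in E21 ZZ, 15.6% and 1.70% in E21 DZ, and 19.9% and 0.417% in E28 DZ. It was 6.18% and 2.42% in E18 ZZ, 3.54% and 1.66% in E18 DZ, and 1.67% and 0.247% in E28 ZZ. The mean difference was 8.75 ± 7.45 percentage points (SD, n = 6 libraries, positive in 6 of 6, two-sided exact permutation test over libraries, p = 0.03125, the smallest that 6 pairs allow). Relative to the share of gated barcodes in the library, it was 2.84 and 2.08 times as high at E18, 3.46 and 8.503 times at E21, 6.54 times in E28 ZZ and 48.15 times in E28 DZ. Of the 24 gated barcodes of E28 ZZ, 19 had no gated neighbour (79.2%, against 95.8% of the others), and of the 39 of E28 DZ 6 had none (15.4% against 96.9%).

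Clusters of the same embeddings showed where the gated barcodes sat, and since every peak outside the marker loci shaped them, their values are descriptions. In E28 DZ 32 of 39 gated barcodes lay in cluster 14, which held 192 barcodes. In that cluster the windows of SCN10A (a sodium channel of pain-sensing neurons) and PRPH (peripherin) stood at 89.7 and 85.9 CPM against 5.27 and 9.43 in the rest of the library. In E21 DZ 106 of 171 gated barcodes lay in cluster 4, where CHAT and SLC18A3 (the enzyme and vesicle transporter of acetylcholine) stood at 49.3 and 37.7 CPM against 6.89 and 5.90. The summed spinal interneuron windows were 0.46 higher on the log2 scale in cluster 4 (9 of 27 over 1.5-fold), and the motor neuron windows 0.25 (8 of 12). A further 31 gated barcodes lay in cluster 15, where SCN10A stood at 107 against 3.62 CPM.

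E21 ZZ divided along similar genes, with each of 4 clusters holding 57 to 168 of its 443 gated barcodes. Cluster 11 had CHAT at 115 against 11.7 CPM, SLC18A3 at 80.1 against 7.60 and MNX1, a motor neuron homeobox factor, at 104 against 39.1. Cluster 14 had SCN10A at 90.4 against 6.06 CPM. Cluster 3, the largest holder, had PAX2 and PAX5, factors of inhibitory interneurons, at 271 and 318 against 124 and 138 CPM. SCN10A (35.1 against 6.84 CPM), CHAT (34.1 against 14.7) and SLC18A3 (24.4 against 9.60) were also above the rest there, so these genes were not particular to clusters 14 and 11. PAX2 and PAX5 were also above the rest in cluster 7 (233 and 214 against 128 and 146 CPM) and cluster 11 (186 and 223 against 131 and 147). Of 27 spinal interneuron windows, only 6 were over 1.5-fold in cluster 3, 4 in cluster 7 and 3 in cluster 11. The log2 ratios of the summed list were 0.35, 0.26 and -0.16. Cluster 7 had PAX6 and HES5, which mark dividing neural progenitors, at 304 and 170 against 108 and 77.2 CPM.

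At E18 no cluster held most of the gated barcodes. The largest holder in E18 ZZ was cluster 1 (80 of 245), where the summed neural progenitor windows were 0.80 higher on the log2 scale than in the rest and the pan-neuronal windows 0.27 higher. Cluster 18 of that library had the highest share of gated barcodes (15 of 92, 16.3%). In E18 DZ 4 clusters held 11.11% to 21.6% each. In clusters 0, 7 and 1 of E18 DZ (37, 29 and 21 gated) the progenitor windows were 0.68, 0.68 and 0.36 higher and the pan-neuronal windows 0.21, 0.26 and 0.15. In cluster 17 (19 gated of 164) the pan-neuronal windows were 0.49 and the progenitor windows 0.29 higher. SCN10A stood at 26.5 against 6.84 CPM there, but the summed sensory neuron windows were only 0.02 higher (4 of 21 over 1.5-fold). The motor neuron and spinal interneuron windows were 0.15 and 0.22 higher. In E28 ZZ no cluster held more than 5 of the 24 gated barcodes, and in that one (cluster 15) SOX10, a factor of neural crest and glia, stood at 99.9 against 16.7 CPM.

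The rule took only part of each of these clusters. In cluster 14 of E28 DZ the 160 barcodes that were not gated stood at 653 CPM over the marker windows, against 1372 in the 32 gated and 220 in other clusters, and their pan-neuronal windows summed to 4726 CPM against 5156 and 2991. In cluster 4 of E21 DZ the corresponding pan-neuronal sums were 5903 CPM in 625 barcodes that were not gated, 6346 in 106 gated and 3300 elsewhere. The other barcodes used in the tests below therefore include cells whose pan-neuronal windows were nearly as open as those of the gated. E28 ZZ was uneven, with few gated barcodes per cluster. There the gated sums were below those of the barcodes not gated in clusters 0 (2323 against 2855 CPM) and 6 (1894 against 2929). In cluster 15 they were above (4515 against 3215).

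**Figure D3:**
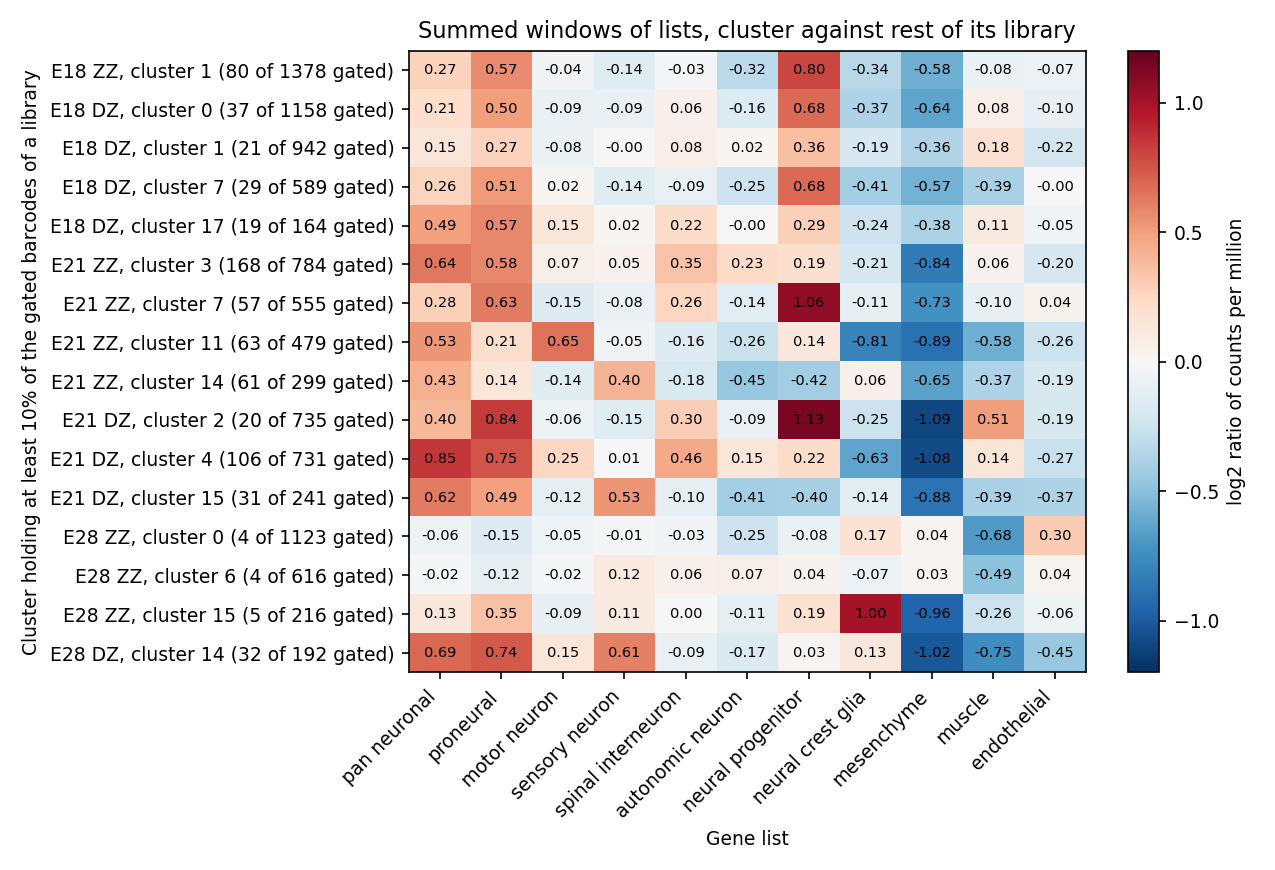
Log2 ratio (colour and number) of the summed windows of each gene list (x axis) in a cluster against the rest of its library, for the clusters that hold at least 10% of the gated barcodes of a library (y axis). The pan-neuronal list was higher in the E21 clusters and in E28 DZ (0.28 to 0.85) and near 0 in clusters 0 and 6 of E28 ZZ (-0.06 and -0.02), while lists of neuron subtypes lay on both sides of 0.

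Outside the markers, 1024 of 23420 windows differed between gated and other barcodes, with 516 higher (2.2% of those tested) and 508 lower (2.17%). Windows within 100 kb of a marker were left out, and the median change over all windows was -0.02 on the log2 scale. Among called windows that moved alike in 6 libraries with at least 20 CPM in the higher sum of each, the rises were led by the microRNA gene MIR124A-2 (miR-124 is the abundant microRNA of neurons), and the falls by CPA1 (whose window overlaps CPA5), the fibrillar collagen gene COL3A1 and LRRC17 (which overlaps FBXL13). Without E21 ZZ only 40 windows were called and without E21 DZ 78, and the largest count on leaving out any other library was 1178. Without both E28 libraries, an alternative chosen after seeing the data, 1283 were called (748 higher and 535 lower).

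MIR124A-2 stood at 35.6, 41.7, 67.3, 99.8, 68.2 and 79.4 CPM in gated barcodes and at 24.6, 24.3, 29.4, 21.9, 14.3 and 15.9 in the others. The groups did not overlap, and the fitted rise was 2.69-fold (log2 1.43 ± 0.20 SE, edgeR adjusted p = 0.00299). Also among the 12 largest rises by this rule were CNTN2, SLC38A8, REC8, CABP7, ADGRG1, PRPH, PPP1R14A, C8H4orf50, STMN4 and NKAIN4, with log2 changes of 1.01 to 1.12, and the windows of CABP7 and C8H4orf50 overlap those of ZMAT5 and JAKMIP1. CNTN2 (contactin of early axons) was at 48.2, 58.1, 89.1, 102, 78.0 and 191 CPM against 29.7 to 47.8 in the others.

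**Figure D4:**
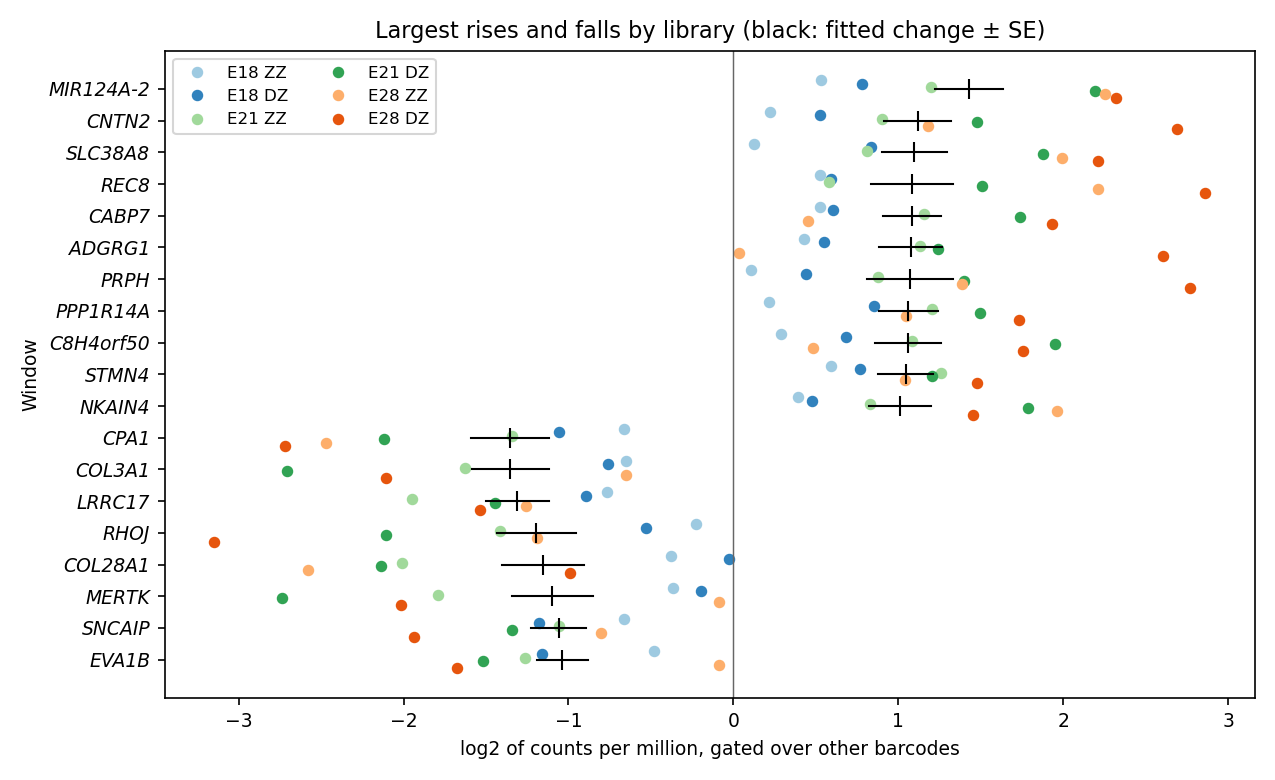
Log2 ratio of CPM in gated over other barcodes (x axis) for 11 of the largest rises and the 8 largest falls by the naming rule (y axis), 1 point per library, with the fitted change ± SE in black. For most windows the point nearest 0 is that of an E18 library, as for STMN4.

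Of the pan-neuronal list (genes of neurons in general) 20 of 41 windows rose and none fell, beside 2.2% and 2.17% of all windows, with a median log2 change of 0.43 against -0.02 over all windows. STMN4, a stathmin that regulates microtubules, was at 22.3, 33.8, 56.6, 42.6, 24.4 and 39.7 CPM in gated barcodes and at 11.8 to 23.7 in the others (log2 1.04 ± 0.17 SE, edgeR adjusted p = 0.00444). CELF3 was at 65.4, 88.1, 100, 118, 63.4 and 133.1 CPM against 36.4 to 59.8, with no overlap between the groups (log2 0.85). NOVA2, a splicing factor of neurons, reached 162 CPM in E21 DZ against 36.5 but was at 19.5 against 13.6 in E28 ZZ (log2 1.27 ± 0.22 SE, adjusted p = 0.00531). TAGLN3 rose by 0.82 on the log2 scale. The log2 ratio of the summed list was lowest in E28 ZZ (0.06) and E18 (0.14 and 0.18), and higher in E21 ZZ (0.46), E21 DZ (0.76) and E28 DZ (0.70).

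The proneural list, the factors and Notch ligands that start neuron formation, had 5 of 17 windows higher and none lower (median 0.64), beside 2.2% and 2.17% of all windows. NEUROG2, whose promoter is printed above, was at 81.1, 109, 96.0, 111, 87.7 and 79.4 CPM in gated barcodes and at 56.3, 69.2, 55.4, 43.0, 32.1 and 33.9 in the others, with no overlap (log2 0.93 ± 0.13 SE, edgeR adjusted p = 0.00299). The promoter windows behaved alike: that of NEUROG2 ranged from 57.6 to 77.1 CPM in gated and from 23.0 to 48.5 in other barcodes (log2 0.87 ± 0.12 SE), and those of STMN4 and CELF3 rose by 1.09 ± 0.19 and 1.11 ± 0.18. NEUROG1 rose by 1.02 ± 0.17 and NHLH2 by 0.78 ± 0.18 on the log2 scale, each in 6 of 6 libraries. DLL1, a Notch ligand of newborn neurons, rose by 0.64 ± 0.14 but was lower in gated barcodes of E28 DZ (39.7 against 45.3 CPM). NEUROD4 also rose (0.71).

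The lists of mature function are given beside 2.2% of all windows called higher and 2.17% lower. Of 18 ion channel windows 5 rose and none fell (median 0.39), including the calcium and sodium channel genes CACNA1A (0.53) and SCN1A (0.61). Of 29 synapse and transmitter windows 5 rose and 1 fell (median 0.21). UNC13A (0.63), GAD1 (0.71) and SNCB (0.87) were among those that rose, and SYN3 fell by 0.48. Of 24 axon guidance windows 4 rose and 1 fell (median 0.16), with NRCAM (0.93), CHL1 (0.83) and UNC5A (0.59) higher. SEMA3A, a repellent secreted by mesenchyme and by some neurons, was lower in 6 of 6 libraries (-0.70).

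The subtype lists are set beside the same shares of all windows (2.2% higher, 2.17% lower). Of 12 motor neuron windows 2 rose and none fell (median 0.40). CHAT was at 27.0, 42.2, 36.2, 43.6 and 9.75 CPM in gated barcodes of the first 5 libraries and had no count in E28 DZ, which allows up to 7.0 CPM (3 counts), against 22.1, 28.4, 15.0, 8.97, 1.15 and 0.641 in the others (log2 1.16 ± 0.28 SE, edgeR adjusted p = 0.0218). Its window overlaps that of SLC18A3, which stood at 0.90 with an adjusted p of 0.0699. PRPH rose by 1.07 ± 0.26 and was highest in E28 DZ, at 72.4 against 10.6 CPM.

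Of 21 sensory neuron windows 4 rose and 1 fell (median 0.18), beside the same 2.2% and 2.17% of all windows. SCN10A was at 10.6 and 10.6 CPM at E18, 34.5 and 37.6 at E21 and 91.0 in E28 DZ, with no count in E28 ZZ (up to 14.6 CPM allowed), against 2.06 to 7.48 in the others (log2 1.998 ± 0.39 SE, edgeR adjusted p = 0.00865). DRGX (a dorsal root ganglion homeobox factor) rose by 0.92 and GFRA1 by 0.40, and SIX4 fell by 0.43. TRPV1 had no count in gated barcodes of any library, but its window had a count in at most 0.703% of the other barcodes of a library. Of 27 spinal interneuron windows 3 rose and none fell (median 0.07), namely PAX5 (0.67), SOX21 (0.58) and PAX2 (0.62). Their promoter windows alone were not called, with log2 changes of 0.24, 0.17 and 0.45 (edgeR adjusted p = 0.676, 0.718 and 0.351). None of 10 autonomic neuron windows passed (median -0.05), and TH stood at a log2 change of 1.07 ± 0.36 with an adjusted p of 0.0997.

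**Figure D5:**
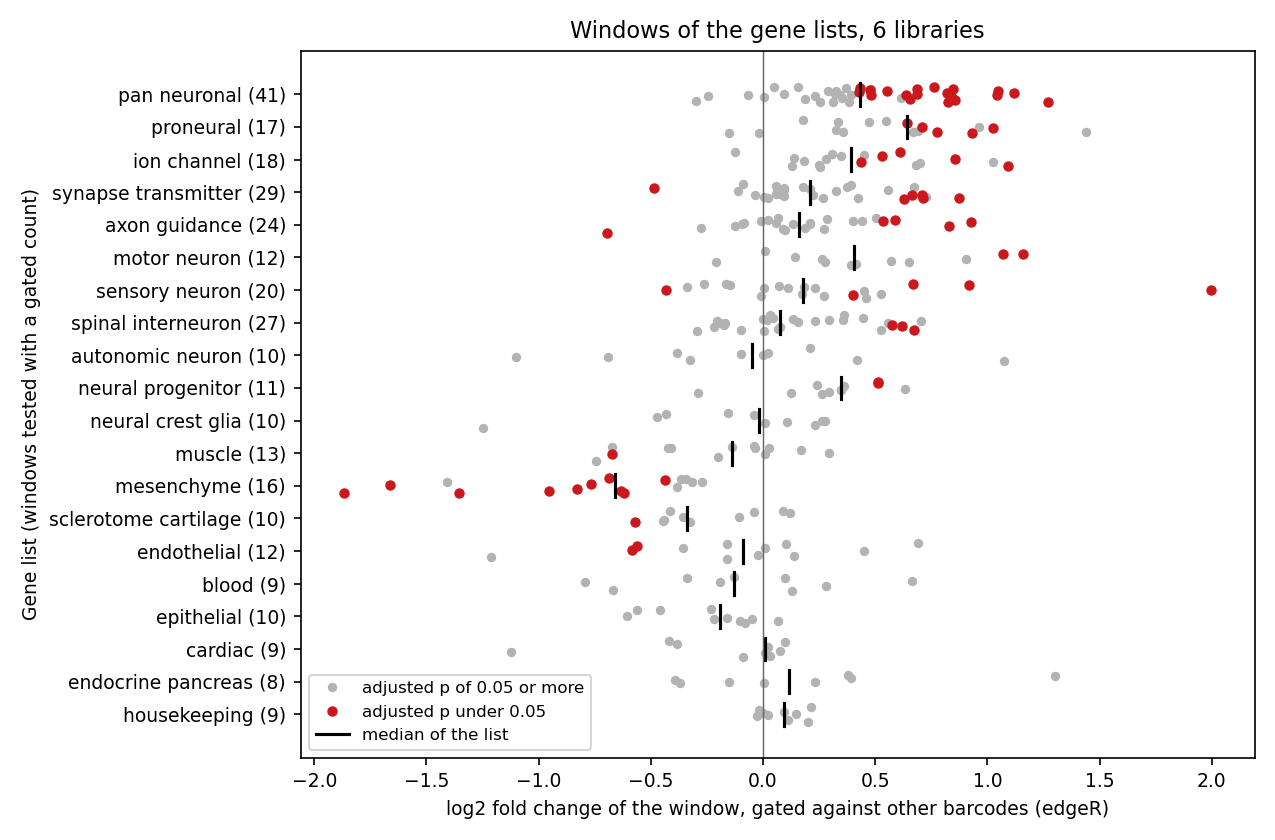
Log2 fold change (x axis) of each window of the gene lists (y axis, number of windows with a gated count) between gated and other barcodes, with windows of adjusted p under 0.05 in red and the median of each list as a black bar. The pan-neuronal and proneural lists lie to the right (medians 0.43 and 0.64) and the mesenchyme list to the left (-0.66).

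Among markers of other cell types the mesenchyme list fell most often, beside 2.17% of all windows called lower. Of 16 mesenchyme windows 10 fell and none rose (median -0.66). DCN (decorin, a matrix proteoglycan of fibroblasts) was at 3.92, 4.22, 6.53, 5.52, 9.75 and 11.7 CPM in gated barcodes and at 12.5, 11.6, 17.8, 26.3, 36.6 and 30.7 in the others, with every gated value below that of the other barcodes of its library (log2 -1.66 ± 0.23 SE, edgeR adjusted p = 0.00299). COL3A1 fell by 1.35, LUM by 1.87 and PRRX1, a limb and body wall mesenchyme factor, by 0.63 on the log2 scale. Of 13 muscle windows 1 fell (CDH15, by 0.67), of 10 sclerotome and cartilage windows 1 fell (FOXC1, by 0.57), and of 12 endothelial windows ERG and PECAM1 fell (by 0.56 and 0.58). None of 10 neural crest and glia, 9 blood, 10 epithelial, 9 cardiac, 8 endocrine pancreas or 9 housekeeping windows passed, with medians of -0.02, -0.13, -0.19, 0.01, 0.12 and 0.10. GATA1 and PAX4 had no count in gated barcodes.

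Neural progenitor windows rose in part: 2 of 11 passed, PAX6 (0.51 ± 0.11) and HES5 (0.51 ± 0.13), and the median was 0.35, beside 2.2% of all windows called higher. PAX6 was at 184, 201, 171 and 144 CPM at E18 and E21 against 124, 147, 117 and 84.9. By the same rule applied to the neural progenitor list, 957 barcodes were gated, of which 61 met both rules. That is 5.58% of the neuron-gated barcodes, whereas 1.55% of the others met the progenitor rule. The gap lay in E18 ZZ (8.57% against 2.22%), E21 ZZ (6.77% against 2.37%) and E21 DZ (2.92% against 1.39%), while E18 DZ had none (2.92% against 2.93%) and no gated barcode met both rules at E28. The muscle rule was met by 15 neuron-gated barcodes (1.37%, against 2.28% of the others). The gated share was the larger in 3 of 6 libraries, of which E18 DZ and E28 ZZ rest on 2 barcodes each. The mesenchyme rule was met by none of 1093 (against 0.463% of the others). Doublets were not called. Without the gated barcodes that met the muscle, mesenchyme, endothelial, epithelial or blood rule, 1100 windows were called. Those that met the progenitor rule stayed in.

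Set directly against the progenitor-gated barcodes, 8 of 20295 windows differed by edgeR, 2 higher (0.00985%) and 6 lower (0.0296%), and 1452 had an unadjusted p under 0.05. The 3 lower windows with a gene symbol were HHIPL1 (log2 -1.16 ± 0.19 SE, adjusted p = 0.00812), PRDM13, a zinc finger factor of dorsal neural tube progenitors (-0.94 ± 0.16, adjusted p = 0.0153), and FAM181A (-1.06 ± 0.20, adjusted p = 0.0282). PRDM13 was at 69.9, 90.8, 83.1 and 82.5 CPM in neuron-gated barcodes at E18 and E21, against 123, 133.7, 174 and 217. No pan-neuronal window passed, though 34 of 41 lay above 0 (median 0.26). The E28 libraries had 10 and 14 progenitor-gated barcodes, and the call count was 0 when either E21 library was left out and 5 without E28 DZ.

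At the level of single regions the same contrast gave 8540 of 78414 regions with a peak in all 6 libraries, 1597 higher (2.04%) and 6943 lower (8.85%). The median change over all regions was -0.28 on the log2 scale. The excess of lower calls changed with the scaling and with the libraries used. Of the called regions 18.7% were higher with TMM, 29.7% with library totals and 30.6% with DESeq2. With TMM the share was 30.1% without E28 DZ, 26.5% without E28 ZZ and 16.3% to 18.5% when any other library was left out. The called total fell to 2069 without E21 ZZ, 2027 without E21 DZ and 5690 without E28 DZ.

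The region in an intron near IGDCC3 rose most among those that met the naming rule. It was at 38.4, 42.7, 73.7, 56.7, 29.2 and 121 CPM in gated barcodes and at 22.6, 23.2, 19.5, 14.9, 4.27 and 4.75 in the others, so the groups did not overlap (log2 1.87 ± 0.19 SE, edgeR adjusted p = 5.06e-19). The region 88076 bp from the start of KLF7, a zinc finger factor of axon growth, rose by 1.63 ± 0.22, and that 15366 bp from CRABP1, a retinoic acid binding protein of early neurons and neural crest, by 1.37 ± 0.17. The region near NUAK1 was at 21.5 and 22.7 CPM at E18 against 18.1 and 21.0, and at 69.2 and 93.4 in E21 DZ and E28 DZ against 15.6 and 7.33. A further region lay 18352 bp from BTG2, a brake on progenitor division (1.58 ± 0.23). The largest falls lay in introns or between genes, at 62915 to 158351 bp from the nearest starts (FOXD2, ZFP36L2, PPP1R12B and OPA1) (log2 -1.45 to -1.53).

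The central 200 bases of regions that rose held most of the searched motifs in a larger share than those of all regions tested. CAGATG, searched on both strands, was in 27.3% of the higher, 18.6% of all tested and 25.5% of the lower regions. CAGCTG was in 30.1%, 20.2% and 22.4%, and CCCNNGGG, the core of the site of EBF factors, in 19.1%, 12.4% and 7.75%. TAATTA, a homeodomain core, was in 5.57%, 3.06% and 3.74%, while CATATG went the other way (2.505%, 3.003% and 5.37%) and ATCAATA was rare (1.13%, 0.90% and 1.08%). Within the interquartile range of GC of the higher regions, CAGATG was in 29.6% of 832 higher, 20.04% of 30563 tested and 24.7% of 2136 lower regions. There CAGCTG was in 33.3%, 24.9% and 28.7%, CCCNNGGG in 18.99%, 13.6% and 11.05% and TAATTA in 4.93%, 1.85% and 1.54%, while CATATG was in 1.92%, 1.93% and 2.57%, about the same share of higher as of tested regions. In the printed regions, the IGDCC3 and CRABP1 sequences hold CAGCTG and the KLF7 and NUAK1 sequences CAGATG. The printed regions do not stand for all 8 regions with the largest rise. Among those not printed, the central bases of the regions near BTG2 and CCDC182 hold no E-box as defined above. Those of the regions near C6H1orf228 and CPNE6 hold 1 each. For comparison, the same letters were in 12.5% (CAGATG) and 13.6% (CAGCTG) of the 250-base promoters of 19560 protein-coding genes. These shares describe letters in windows, with no test.

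GC content moved with the region result. Its mean was 57.6% in higher, 54.4% in all tested and 48.8% in lower regions, and from the lowest to the highest of 5 GC bins the median log2 change went from -0.70 to -0.06 and the share called lower from 15.0% to 2.37%. Its part in the result was not tested. Higher regions were in introns in 48.3% and between genes in 31.6% of cases, against 43.7% and 32.5% of all tested.

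The difference between gated and other barcodes changed with stage in a small share of windows. From E18 to E21 the log2 ratio of gated to other barcodes shifted up in 84 windows (0.359% of 23420) and down in 76 (0.325%). NRXN2, a presynaptic adhesion protein, was at 119 and 98.7 CPM in gated barcodes at E18 against 108 and 107, and at 197 and 233 at E21 against 93.7 and 69.8 (edgeR interaction, log2 1.39 ± 0.21 SE, adjusted p = 0.000679). MYO18B behaved likewise (1.42 ± 0.24). MERTK, a receptor of engulfing cells, was at 61.1 and 60.7 CPM at E18 against 78.9 and 69.7, but at 22.0 and 14.5 at E21 against 75.9 and 96.8 (log2 -1.81 ± 0.28). CALD1, a contractile regulator of mesenchyme, moved the same way (-1.26 ± 0.23).

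From E18 to E28 the ratio shifted up in 101 windows (0.431%) and down in 140 (0.598%), and from E21 to E28 up in 8 (0.0342%) and down in 44 (0.188%). RTN4RL2, a Nogo receptor homologue, was at 40.0 and 37.5 CPM at E18 in gated barcodes and 117 and 135 at E28, against 38.5 and 39.2 and then 22.0 and 23.8 (edgeR interaction, log2 2.35 ± 0.32 SE, adjusted p = 4.87e-05). MIR182, a microRNA gene of sensory cells, was at 83.8 and 86.5 CPM in gated barcodes at E18 against 78.9 and 77.4. At E28 it was lower in both groups, at 39.0 and 60.7 CPM against 8.82 and 6.14, so its ratio rose (2.66 ± 0.40). ZIC4, a factor of the dorsal neural tube, stood at 48.7 and 74.7 CPM at E28 against 106 and 243 (-1.94 ± 0.29). Against E21, the dorsal neural tube and muscle progenitor factor PAX7 (-1.87 ± 0.30) and the netrin receptor DCC (-1.80 ± 0.32) shifted down. The direction of the E28 calls depended on the scaling, with 41.9% of calls from E18 to E28 upward with TMM, 55.4% with library totals and 79.4% with DESeq2, and with 15.4%, 33.3% and 72.3% from E21 to E28.

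These stage counts were unstable. With the other barcodes drawn to the depth of the gated they were 7 (E21 against E18), 54 (E28 against E18) and 0 (E28 against E21). In the same order they were 0, 3 and 7 without E18 ZZ, 0, 7 and 7 without E18 DZ, 15, 57 and 9 without E21 ZZ, and 0, 45 and 0 without E21 DZ. They were 1238, 1837 and 823 without E28 ZZ and 1239, 177 and 406 without E28 DZ. In E28 ZZ 3 counts in gated barcodes already correspond to 14.6 CPM.

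The breed comparison called none of 23420 windows by edgeR (0%) and none by DESeq2, with 343 and 503 at an unadjusted p under 0.05. The pan-neuronal windows lay above 0, that is, with a larger gated difference in DZ, in 36 of 41 cases (median 0.22, against -0.02 over all windows). The mesenchyme windows lay below 0 in all 16 cases (median -0.35), and no window of either list was called.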

How the data were processed

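Single-cell ATAC-seq was run on 6 libraries. The authors aligned reads to Sscrofa11.1 and called peaks and cells per library with Cell Ranger ATAC, and per the labels used Seurat 3.1.1 and Signac 0.2.2. The deposited matrices hold raw counts of cut sites per peak and barcode, so a site outside the called peaks of a library has no value. Peak lists give coordinates only.

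Gene windows were taken from RefSeq gene models on Sscrofa11.1 and received the counts of each overlapping peak. Counts were summed per library over gated and over other barcodes, and the sums were tested with the edgeR 4.0.16 quasi-likelihood test (TMM, filterByExpr, library as a term, Benjamini-Hochberg adjusted p under 0.05). The 6 libraries of different stage and breed served as replicates. With the library term, p-values measure how the difference between gated and other barcodes varied between libraries that also differ in stage and breed. For regions the test used a spread shared over all regions, so a very small p there does not rest on 6 libraries alone. The window tests also borrowed spread across windows. Small p-values for windows, and for stage interactions above all, therefore do not rest on the libraries alone either. Regions are merged peaks present in all 6 libraries. Windows and regions within 100 kb of a marker were left out. For stage and breed the interaction with the gate was tested (3 and 4 residual degrees of freedom). Kept counts per library were 89816504 to 133037579, and gated counts 205190 to 5050095. Embeddings used 50 components of binary peaks without the first, and Leiden clusters (resolution 1). The other filters of the study were not used here and no doublets were called. A run on simulated counts tested 23289 windows, whereas the gated comparison tested 23420. In that run each change had the same size in all 6 libraries. In the data the log2 ratio of the summed pan-neuronal windows ran from 0.06 to 0.76 between libraries. The run recovered 93 of 100 changes of 1.5-fold and 100 of 100 of 2-fold, with 14 false calls. Whether this recovery holds for the data themselves, where calls fell from 1024 to 40 without E21 ZZ, was not tested.

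The barcode rule, the gene lists and the tests were chosen with earlier results of these data known. Of 337 list genes 323 had a window. Named windows were the 12 largest rises and 8 largest falls among called windows with a symbol, moved alike in 6 libraries and with at least 20 CPM in the higher sum of every library, the 4 lowest p of each list, and by the same rule 8 and 4 regions. For the interactions they were the 4 lowest p in each direction. Other members of a list were named beside its count after their values were seen, as were the windows shown for clusters and the 7 sequences printed. Alternatives were another tool, scaling, filter, gate, depth and each library left out in turn. Some windows that met these rules are not reported here, though the counts of the lists include them.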

Additional observations from a re-analysis of the deposited data

Results flagged for a closer look

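The difference between gated and other barcodes itself differed between stages by the test of the interaction. This applied to 160 windows between E21 and E18, 241 between E28 and E18 and 52 between E28 and E21, and the counts moved with the depth of the other barcodes and with single libraries as given above.

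Barcodes above 30000 counts took no part in the comparisons, and 8 of these 2064 (0.388%, exact 95% interval 0.167% to 0.762%) met the marker part of the rule, above the 3 counts that a count of 0 allows. They came from E18 DZ (1), E21 ZZ (3) and E21 DZ (4). None of the 3566 barcodes below 2000 counts did.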

How the results depend on the processing

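Gated and other barcodes were paired within libraries by the library term, and without it 0 windows (2630 at an unadjusted p under 0.05), 373 regions and 0 windows against progenitors were called. The cause of the changes below was not tested. The windows called numbered 1759 with DESeq2, 11 at 5 times the share, 606 in promoter windows, 2759 by presence of a count, and, chosen after seeing the data, 1868 without both E18 libraries. They ranged from 40 to 1178 on leaving out a library, and regions from 2027 to 7987. Against progenitors there were 13 with DESeq2 and 95 with no filter, and 0 to 8 on leaving out a library. Stage calls were 0 to 1239, 3 to 1837 and 0 to 823 on leaving out a library (E21 against E18, E28 against E18, E28 against E21), 7, 54 and 0 at matched depth, 854 and 296 for the E28 contrasts with DESeq2, 21 for E28 against E21 without TMM, and 1243 for E21 against E18 without both E28 libraries (added later). Breed calls stayed at 0.

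Held-out log2 changes on leaving out a library were 0.22 to 0.33 (ELAVL4), 0.82 to 1.16 (NHLH1), 0.053 to 0.15 (ISL1), 0.18 to 0.31 (SLC12A5), 0.16 to 0.43 (ELAVL3), 0.56 to 0.79 (STMN2), 0.48 to 0.70 (NEUROD1), 0.35 to 0.70 (INSM1), 0.18 to 0.33 (POU4F1) and 0.0034 to 0.13 (NEFM). The neighbour difference was 6.60 to 10.2 points, but 5 libraries allow no p below 0.0625. Among the named windows, SNCAIP (log2 0.22) and PECAM1 (0.0095) turned positive in promoter windows. Of all 1094 refits of named windows, 865 kept direction and call and 227 lost the call, most of them without E21 ZZ (45) or E21 DZ (37), without the library term (55) or at 5 times the share (53).

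The shares gated, in the order used above, were 3.27%, 2.71%, 6.49%, 3.20%, 0.776% and 0.804% with 3 windows, 1.03%, 0.893%, 2.78%, 0.963%, 0.0638% and 0.222% with 5 windows, 7.44%, 6.92%, 10.8%, 4.58%, 1.16% and 1.23% at 2 times the share, and 0.133%, 0.119%, 0.765%, 0.353%, 0.0106% and 0.0529% at 5 times. With the share of the own library they were 1.03%, 0.903%, 2.26%, 1.89%, 0.861% and 1.21%, and with promoter windows 1.72%, 1.85%, 3.49%, 1.23%, 0.128% and 0.444%. With the limits 4000 to 60000 or shared peaks they stayed within the counting intervals. The E28 libraries held 24 and 39 gated barcodes, whose 3 counts correspond to 14.6 and 7.0 CPM.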
